A study of Saccharomyces cerevisiae with 24 samples.

Results

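The large subunit of the yeast ribosome is built from ribosomal RNA and a fixed set of proteins, and the transcripts of all its protein genes were followed here through a change of carbon source. The genes were taken by symbol (RPL followed by a number, with or without A or B, and the stalk genes RPP0, RPP1A, RPP1B, RPP2A and RPP2B), which gave 81 of the 6612 transcripts of the expression table. They comprise 35 pairs of A and B copies (70 genes) and 11 single-copy genes (RPL3, RPL5, RPL10, RPL25, RPL28, RPL29, RPL30, RPL32, RPL38, RPL39 and RPP0). Each pair is counted here as 1 protein, which gives 46 proteins. The copies of RPP1 and RPP2 are counted so too, though their proteins are only 60% and 62.2% identical. RNA was sequenced from Saccharomyces cerevisiae strains given as all carrying a Myc-tagged SFP1 (SFP1-MYC::KanMX) and the same auxotrophic and resistance markers (ade2-1, trp1-1, ura3-1 and can1-100, with alleles of HIS3 and LEU2). The study's strain list differs. It has these markers with untagged substitutions, and tagged substitutions with other markers. WT carries the normal lysines of Sfp1, in K655/657R the named pair of lysines is arginine, which cannot be acetylated, and in K655/657Q it is glutamine, which resembles acetyl-lysine. Each of the 3 strains was sampled in YPD (2% glucose), in medium with 2% raffinose as the sole carbon source (0 min), and 15 and 30 min after glucose was added to 2% in the raffinose culture, with 2 libraries per strain and condition. The study left out the second 30 min K655/657R library as an outlier, so 23 of the 24 libraries enter the fit and 30 min K655/657R has 1 library, for which values are given without a test. Values for several strains are given in the order WT, K655/657R, K655/657Q. The labels do not say that the replicates came from separate cultures, and p-values therefore measure the spread between these libraries.

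Most yeast ribosomal protein genes exist as A and B copies left by an ancient duplication of the genome, with proteins that are mostly identical or nearly so. Their promoters are bound by Rap1, Fhl1 and Ifh1, and Sfp1 is a further activator that enters the nucleus when nutrients are plentiful. Transcription of the set is known to follow growth rate and carbon source, and the A and B copies of a pair can differ in promoter, intron and level.

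Levels are given as scaled TPM, transcript abundance (TPM) divided by a library size factor, which is a level per length and relative to the other RNAs of the library, so that the amount of RNA per cell was not measured. The 81 genes took 17.3% to 19.9% of all TPM in YPD, 14.1% to 15.4% in raffinose, 18.7% to 21.7% at 15 min and 19.3% to 23.4% at 30 min. All 81 passed the filter on low values. Read depth is not given by TPM, and the number of libraries limits the precision.

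Transcript sequence decides how well reads can tell the copies apart. The proteins of 12 pairs are identical, and RPP1A and RPP1B are the least alike, at 60% identity. In 4 pairs (RPL1, RPL4, RPL35 and RPL41) under 20% of the 31-base words of a copy's coding sequence occur nowhere else in the coding sequences. The split between these copies is therefore taken as uncertain. The share of reads that fit both copies was not measured. RPL41, whose product of 25 residues lies between the subunits and is among the smallest proteins known in eukaryotes, is the extreme case. Its copies lie on the minus strand of chromosome IV, RPL41A at chrIV:130407-130484 and RPL41B at chrIV:221724-221801 (R64, coding exon), and are shown because they differ in a single base of 78, set in capitals (C9T, counted from the A of the start codon and written from RPL41A to RPL41B).
RPL41A: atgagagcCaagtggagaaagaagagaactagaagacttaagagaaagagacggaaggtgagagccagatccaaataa
RPL41B: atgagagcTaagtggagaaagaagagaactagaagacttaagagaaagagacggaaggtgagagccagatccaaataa
The 18.75% of 31-base words that tell these copies apart all span that base, and RPL41 values are given with this limit.

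The regions before the genes were searched for short motifs, and how alike these regions are between copies was not measured. The letters ACCCNNNCA, a form of the core of the site known for Rap1, were searched on both strands in the 300 bases before each start codon. Other forms of that site were not searched. The letters were found for 25 of the 81 genes (30.9%), against 7.65% of 5897 yeast genes. They were present before only 1 copy in 19 pairs, before both copies in 2 pairs (RPL26 and RPL35), before neither in 14, and before 2 of the 11 single-copy genes. In the 19 pairs the copy with the letters was the lower one in 11 and the higher one in 8. The letters AAAATTTT, an element associated with Sfp1, were found before 6 of the 81 genes (RPL3, RPL4A, RPL15A, RPL18B, RPL32 and RPP1B), or 7.41%, against 9.56% of all. Over 500 bases the order of the latter turned, with AAAATTTT before 13 of the 81 (16.05%) against 12.6% of all genes, while ACCCNNNCA was before 41 (50.6%) against 13.3%. The motifs can overlap only by a terminal base. A match is no evidence of binding, and its absence says only that these letters are not in the window.

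The first 150 bases of that window, from 300 to 151 bases before the start codon (R64), are shown for the 4 pairs whose copies moved most differently in the sections below and which carry ACCCNNNCA (capitals) before 1 copy only.
RPL7A, chrVII:366147-366296, minus strand: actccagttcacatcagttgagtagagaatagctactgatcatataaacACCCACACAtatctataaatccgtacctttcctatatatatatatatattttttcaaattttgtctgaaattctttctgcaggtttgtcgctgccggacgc
RPL7B, chrXVI:172852-173001, plus strand: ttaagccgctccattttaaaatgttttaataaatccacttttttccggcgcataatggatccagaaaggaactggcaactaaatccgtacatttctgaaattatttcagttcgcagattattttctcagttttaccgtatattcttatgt
RPL8A, chrVIII:36176-36325, minus strand: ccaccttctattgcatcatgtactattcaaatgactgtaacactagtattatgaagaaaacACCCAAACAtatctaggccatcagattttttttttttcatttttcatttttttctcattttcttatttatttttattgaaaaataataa
RPL8B, chrXII:48780-48929, minus strand: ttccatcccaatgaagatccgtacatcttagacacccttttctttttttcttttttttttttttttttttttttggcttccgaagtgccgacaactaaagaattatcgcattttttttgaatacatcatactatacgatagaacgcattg
RPL22A, chrXII:262894-263043, plus strand: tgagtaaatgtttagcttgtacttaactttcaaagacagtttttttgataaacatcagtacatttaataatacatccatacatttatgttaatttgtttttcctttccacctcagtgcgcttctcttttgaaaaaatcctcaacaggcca
RPL22B, chrVI:65083-65232, minus strand: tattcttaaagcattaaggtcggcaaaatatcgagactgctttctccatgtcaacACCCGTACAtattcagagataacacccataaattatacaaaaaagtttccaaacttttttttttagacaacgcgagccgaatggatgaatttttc
RPL43A, chrXVI:653866-654015, plus strand: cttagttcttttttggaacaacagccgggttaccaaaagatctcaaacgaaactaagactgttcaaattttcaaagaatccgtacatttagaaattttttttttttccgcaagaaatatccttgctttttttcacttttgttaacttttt
RPL43B, chrX:608005-608154, plus strand: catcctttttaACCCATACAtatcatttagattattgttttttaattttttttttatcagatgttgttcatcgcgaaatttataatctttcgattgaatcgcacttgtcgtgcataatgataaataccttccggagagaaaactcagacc
The letters lie before RPL7A, the higher copy of its pair, and before RPL8A, RPL22B and RPL43B, each the lower copy of its pair. Other forms of the Rap1 site were not searched, so a copy without capitals is not shown to lack such a site.

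The median gene stood at 1421 scaled TPM on average over the 23 libraries. RPL41A (24780) and RPL41B (20759) stood highest, followed by the single-copy gene RPL29 (7340). These genes are among the shortest of the set, with 78, 78 and 180 coding bases. TPM divides by length, and the part of length in this order was not tested. RPL15B (27.4, or 0.02 times the median gene) and RPL7B (99.4, or 0.07 times) stood lowest, and RPL22B (152) and RPL18B (169) came next. Each of these 4 was the minor copy of a pair.

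Summed over the copies, the proteins were more evenly supplied than the single genes. The 90th percentile of level was 5.92 times the 10th among the 81 genes and 3.70 times among the 46 proteins. The higher copies (3.65 times) and the single-copy genes (3.65 times) were as even as the sums, whereas the lower copies spread over 10.9 times. The median single-copy gene (2452 scaled TPM) was near the median pair sum (2808), and above the median A or B copy (1262).

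**Figure D1:**
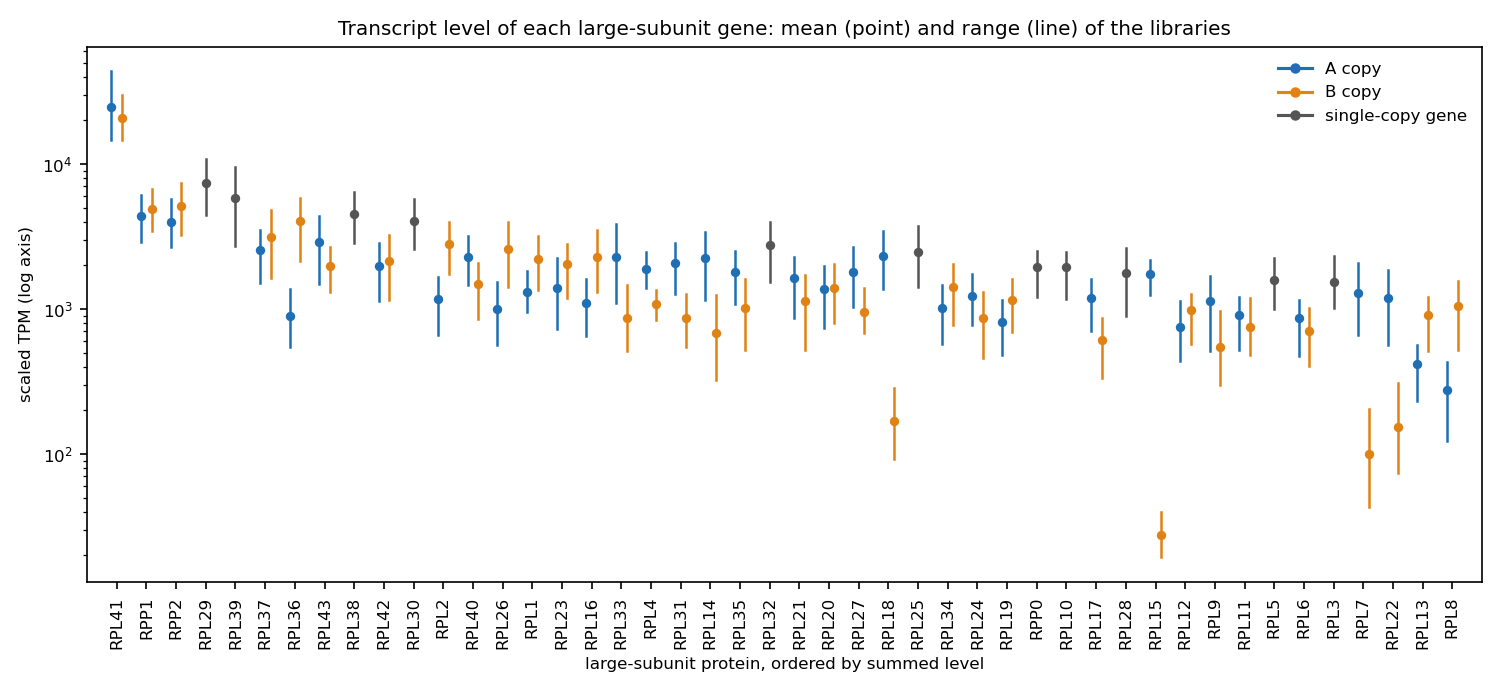
Level of each large-subunit gene in scaled TPM on a log axis, as the mean (point) and range (line) of 23 libraries, with A copies, B copies and single-copy genes in separate colours and proteins ordered by summed level. The points for RPL15B, RPL7B, RPL22B and RPL18B lie far under those of their partners, while single-copy genes lie among the higher copies.

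Neither letter marks the major copy. The A copy had the higher mean log2 level in 19 pairs and the B copy in 16. A was higher in all 23 libraries in 16 pairs, B was higher in all in 13, and the order changed between libraries in 6 (RPP1, RPL42, RPL20, RPL41, RPL11 and RPL43). The median pair differed by 0.79 on the log2 scale, and 21 of the 35 differed by less than 1.

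The 5 widest pairs were RPL15, RPL18, RPL7, RPL22 and RPL36. RPL15A, whose protein (eL15) is deep in the ribosomal RNA core, stood 60.7-fold above RPL15B, with a log2 A/B ratio between 5.47 and 6.55 over the libraries. The mean log2 A/B ratio was 3.80 for RPL18, 3.78 for RPL7, 3.02 for RPL22 and -2.17 for RPL36, so that the B copy led only in RPL36. RPL20 (-0.04), RPL42 (-0.12) and RPP1 (-0.19) were the most even pairs.

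The copies of RPL22 were also among the least alike in sequence, at 84.6% protein identity, and every 31-base word told them apart. RPL15 (79.0% of words distinct) and RPL18 (70.1%) were well resolved, and RPL7 less so (35.0%). RPL7A and RPL7B are the only genes of the set with 2 introns, and 53 of the 81 have at least 1.

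RPL15B (chrXIII:509734-510348, minus strand, no intron) stayed low throughout. It measured 26.1 and 29.1 scaled TPM in WT in YPD, 19.3 and 25.7 in raffinose, 33.7 and 26.6 at 15 min and 24.2 and 28.1 at 30 min, and lay between 19.3 and 39.7 over all 23 libraries. The WT raffinose libraries lay below those in YPD and at 15 min, the other WT groups overlap, and no WT comparison of RPL15B was called.

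The first comparison asked how the genes differ between raffinose and YPD. Large-subunit transcripts were lower in raffinose in every strain: 60, 48 and 53 of the 81 were called down in the 3 strains. The call required 1.5-fold or more and a limma p, adjusted over all genes, below 0.05. Of all 6363 genes tested, 18.4%, 16.9% and 9.13% were called down. The median log2 fold change of the 81 genes was -0.83, -0.66 and -0.69 in the 3 strains, where that of all genes was 0.03, 0.02 and 0.00, and the 56 small-subunit genes lay at -0.87, -0.63 and -0.70. The same 43 genes were called down in all strains and 15 in none.

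The genes with the lowest log2 fold change in WT were RPL9A (-1.38), RPL8B (-1.33) and RPL21B (-1.25). In K655/657R they were RPL36B (-1.08), RPL39 (-1.06, SE 0.28) and RPL8B (-1.02), and in K655/657Q RPL9A (-1.18), RPL13A (-1.09) and RPL8B (-1.08). RPL39, which lines the exit tunnel and has a very short transcript, had the widest error of these.

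By role, 6 of the 7 stalk genes (RPP0, the P1 and P2 genes and RPL12A and RPL12B, which together recruit the GTPase factors of translation) were called down in WT, with 4 and 2 in the mutants. Of all genes 18.4%, 16.9% and 9.13% were called down in the strains, and so were most of the 81 members. No role, here or below, was tested against the other members. RPP2B had the lowest log2 fold change of the P1 and P2 genes in WT (-0.94) and RPP1B the highest (-0.51, not called). Around the catalytic centre (RPL2A, RPL2B, RPL3, RPL4A, RPL4B and RPL10) 4, 3 and 4 of 6 were called down. RPL3, which reaches the peptidyl transferase centre, was at -1.07, -0.68 and -0.60, whereas RPL4A was at -0.29, -0.22 and -0.14 with no call.

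At the rim of the exit tunnel (13 genes) 8, 8 and 10 were called down, including RPL25 (-0.93 in WT), where nascent-chain factors dock. Of the 5S RNA partners, RPL11A (-1.11) and RPL5 (-0.77) were called down in WT, and RPL11B (-0.24) was not. Both ubiquitin fusion genes were called down in WT, RPL40A at -0.76 and RPL40B at -1.11. Of the single-copy genes, 10, 10 and 8 of 11 were called down.

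RPL2B, a gene for uL2 near the catalytic centre, stood at 3323 and 3183 scaled TPM in WT in YPD and at 1807 and 1731 in raffinose. Its groups do not overlap, and the log2 fold change was -0.88, -0.56 (not called) and -0.59 in the 3 strains. RPL2B in WT lost its call with TPM as deposited (-0.47) and with ACT1 scaling (-0.15).

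Against this fall, RPL7B was called up in all 3 strains, the only member to be so, where 19.0%, 17.4% and 11.5% of all genes were called up. RPL7B (chrXVI:173152-174702, plus strand), the minor gene for uL30, measured 62.7 and 58.6 scaled TPM in WT in YPD and 92.4 and 95.4 in raffinose. K655/657R gave 48.2 and 42.9 in YPD and 87.1 and 81.8 in raffinose, and K655/657Q 45.5 and 58.2 in YPD and 74.4 and 86.1 in raffinose.

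In each strain every raffinose library was above every YPD library. The log2 fold change was 0.62 (SE 0.11, limma adjusted p = 0.00012) in WT, 0.88 (SE 0.11, adjusted p = 3.9e-06) in K655/657R and 0.63 (SE 0.11, adjusted p = 0.0002) in K655/657Q for RPL7B. Leaving out the second YPD library of WT gave 0.58 for RPL7B, and leaving out the second raffinose or the first YPD library of K655/657Q gave 0.52 or 0.45, each under the fold threshold of the call. RPL7B was above YPD in each strain with every scaling of the libraries tried.

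RPL9B, minor copy for uL6, was the only other gene above YPD in all strains, at log2 0.08, 0.51 and 0.34, without a call. RPL8A was at -0.11, 0.37 and 0.28 with no call. Its WT value turned to 0.30 with TPM as deposited and to 0.61 with ACT1 scaling.

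How far the whole set fell depends on the scaling, since the median gene itself moves. With TPM as deposited the median of all genes rose by 0.40, 0.42 and 0.19 on the log2 scale, and 21, 2 and 25 members were called down. With scaling to ACT1 it rose by 0.66, 0.57 and 0.12, and 2, 0 and 35 members were called. The actin gene ACT1 itself was at -0.72, -0.63 and -0.13. Set against all genes, the members' median differed by -0.85, -0.68 and -0.69 with the main scaling. It differed by -0.81, -0.64 and -0.67 with TPM as deposited and by -0.77, -0.60 and -0.67 with ACT1. A scaling shifts all genes of a library alike, so this difference hardly depends on the scaling and is no check of it.

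Pairs in which 1 copy left the set were compared through the log2 ratio of A to B, fitted over all 61 A/B symbol pairs of the table. A ratio hardly depends on the scaling between libraries. In raffinose against YPD, 7 of the 35 large-subunit ratios were called in WT, with 8 and 5 in the mutants, beside 18.0%, 21.3% and 14.8% of the 61. The ratio fell by 1.69 for RPL7 (SE 0.07), by 1.46 for RPL9 (SE 0.08) and by 0.96 for RPL22 (SE 0.14) in WT, and rose by 1.22 (SE 0.07) for RPL8. The limma adjusted p was 4.5e-12, 5.2e-11, 1.9e-05 and 2.2e-10 in that order.

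The other called WT ratios were RPL11 (-0.88), RPL43 (-0.77) and RPL41 (-0.60). RPL41 lost the call without the second raffinose library of WT (-0.48) and without its first YPD library (-0.53). In K655/657R the ratios of RPL7 (-1.59), RPL9 (-1.53), RPL22 (-1.30) and RPL8 (1.39) moved most, and RPL41 (-0.69) lost its call without the first raffinose library of that strain (-0.54). In K655/657Q they were RPL9 (-1.51), RPL7 (-1.50), RPL43 (-0.98) and RPL8 (1.36). In each called pair of each strain the copy with the lower mean level gained share.

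**Figure D2:**
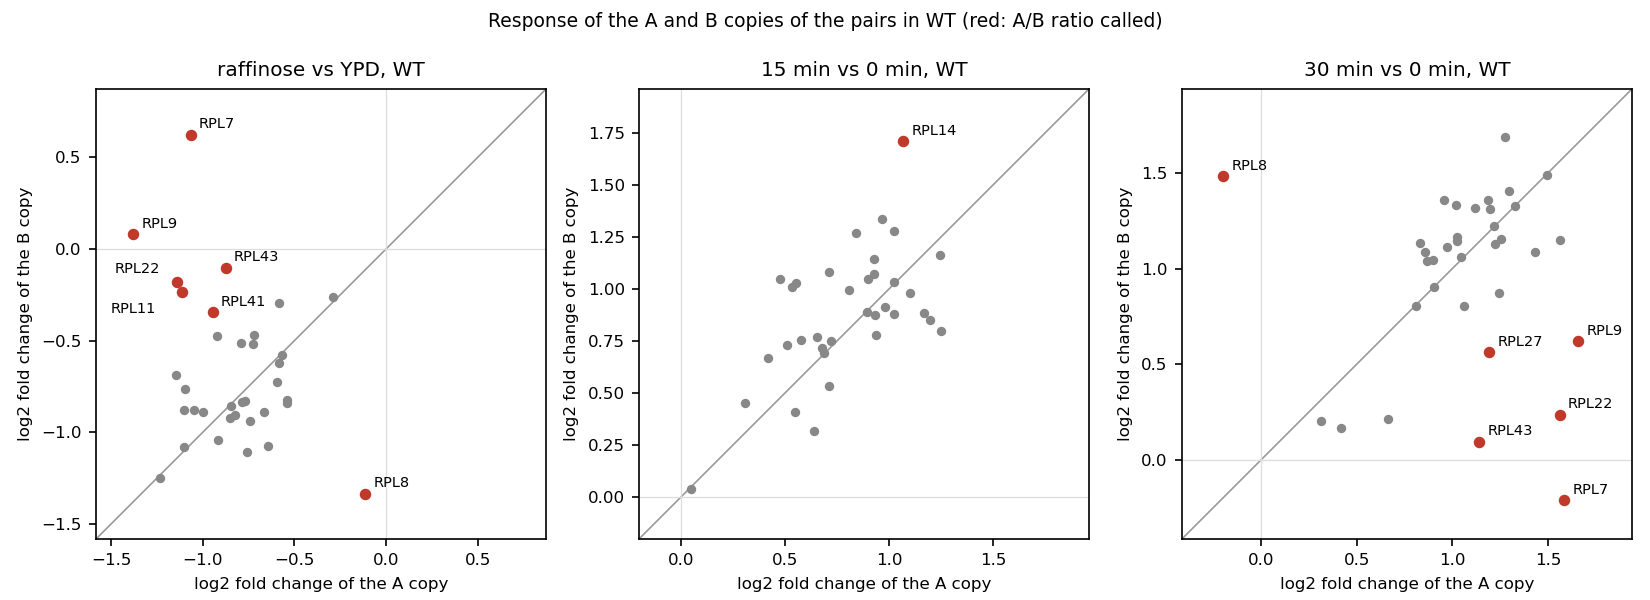
Log2 fold change of the A copy (x) against the B copy (y) of 35 pairs in WT for raffinose against YPD, 15 min against 0 min and 30 min against 0 min, with the diagonal of equal change and pairs whose A/B ratio was called in red. RPL7 and RPL8 lie far from the diagonal on opposite sides in raffinose and change sides at 30 min, and RPL14 is the one pair called at 15 min.

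The share of the lower copy in its pair shows the same pattern library by library. RPL7B made up 3.20% to 4.09% of the RPL7 sum in YPD, 8.56% to 12.6% in raffinose, 11.2% to 12.3% at 15 min and 3.64% to 4.11% at 30 min. RPL8A made up 13.6% to 18.9%, 29.2% to 35.3%, 25.9% to 30.1% and 9.44% to 15.0%. RPL9B went through 17.1% to 23.05%, 37.6% to 45.5%, 39.9% to 43.4% and 25.4% to 28.4%.

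In all of these the raffinose and 15 min libraries lay above the YPD and 30 min libraries without overlap, in every strain. RPL22B gave 6.78% to 8.42% in YPD, 12.6% to 17.2% in raffinose, 15.5% to 21.4% at 15 min and 5.44% to 6.91% at 30 min. RPL43B made up 34.9% to 38.9% in YPD, 49.7% to 58.0% in raffinose, 41.6% to 48.3% at 15 min and 28.8% to 34.4% at 30 min.

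RPL43B thus led its pair in all raffinose libraries but 1 and in none elsewhere. RPL11B rose from 32.8% to 39.4% in YPD to 47.3% to 49.9% in raffinose and 51.1% to 52.0% at 15 min, and held 43.6% to 45.0% at 30 min. Its order was therefore reversed in each 15 min library.

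**Figure D3:**
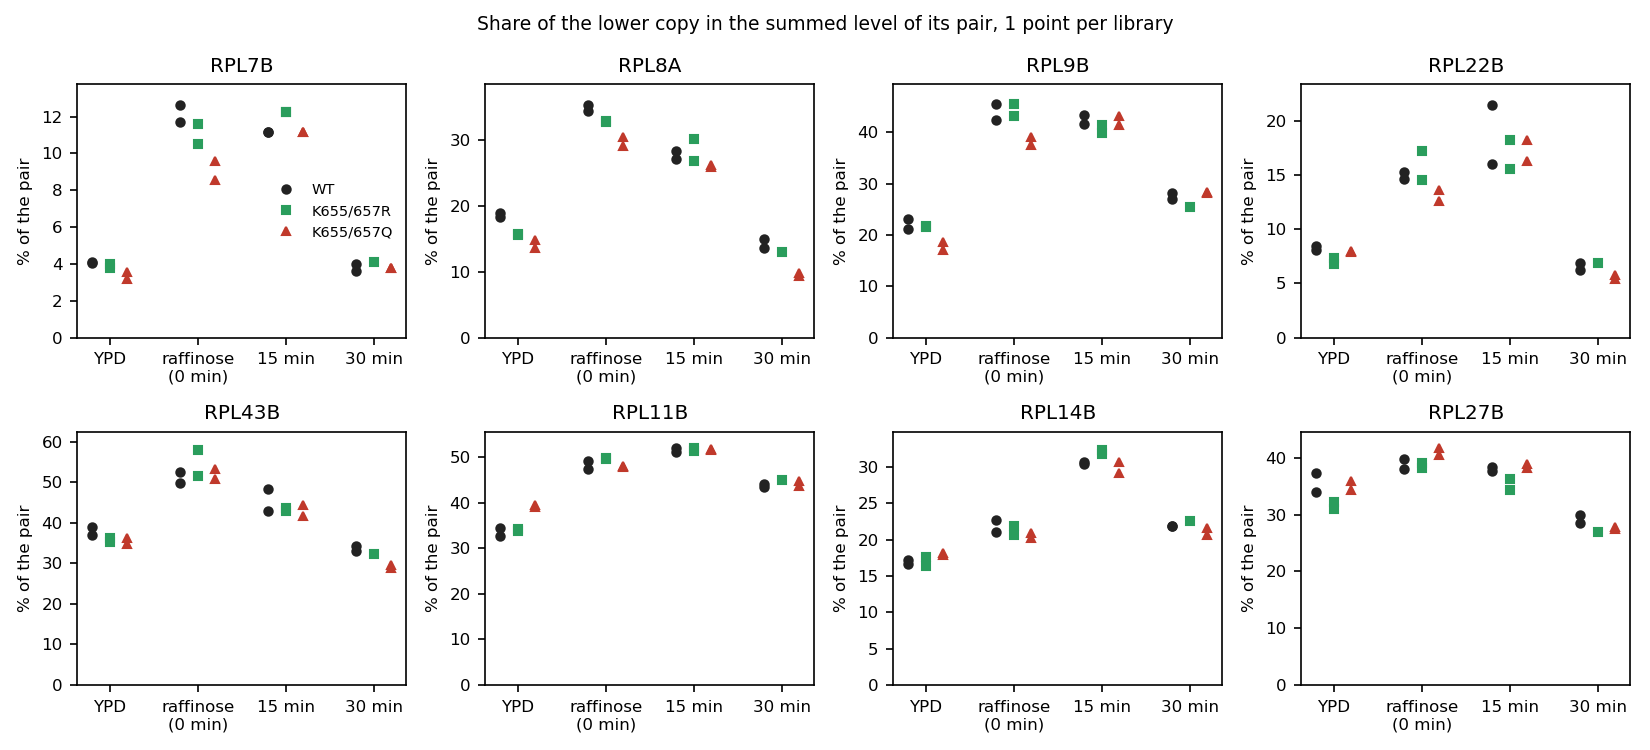
Share (%) of the lower copy in the summed level of its pair for 8 pairs, with 1 point per library by condition and strain. RPL7B, RPL8A, RPL9B and RPL22B have larger shares in raffinose and at 15 min than in YPD and at 30 min, and RPL14B has its largest share (29.1% to 32.4%) at 15 min.

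The sum over a pair, in which the higher copy weighs most, moved more evenly than the single genes. All 46 protein sums were lower in raffinose in each strain, with a median log2 fold change of -0.86, -0.67 and -0.70. In WT they ranged from -1.24 (RPL21) to -0.28 (RPL4). Their SD over proteins was 0.19 in WT, against 0.34 over the 81 genes and 0.22 over the 46 higher copies and single-copy genes alone. These sums are a description, without a test.

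The genes known to act on the set were counted from lists of names. Of 18 regulators of ribosomal protein genes, 7, 7 and 3 were called up in raffinose, where 19.0%, 17.4% and 11.5% of all genes were. IFH1, the coactivator at these promoters, was called up at log2 1.33, 1.08 and 0.64 in the 3 strains. SFP1 itself was at 0.47 in WT (not called) at 0.62 in K655/657R (called) and at 0.24 in K655/657Q (not called).

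Of 14 carriers of large-subunit proteins, the chaperones and loading factors that bring them into pre-ribosomes, 14 were called up in WT, 13 in K655/657R and none in K655/657Q, beside the same shares of all genes. In K655/657Q 7 had a limma p under 0.05 before adjustment and 1, ACL4 (the chaperone of Rpl4), was called down at -0.64. SYO1, which escorts Rpl5 and Rpl11, was at log2 1.78, 1.71 and -0.12. The difference of response between K655/657Q and WT was called down for 13 of the 14 carriers (9.38% of all genes), with a median of -1.50, while the 81 ribosomal protein genes had a median difference of 0.17 with 1 call. That median turned to -0.03 with TPM as deposited and to -0.42 with ACT1 scaling, where all 81 were lower.

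That call was RPL41A, and 10.7% of all genes were called up in this difference. RPL41A measured 36884 and 37755 scaled TPM in WT in YPD and 17364 and 21590 in raffinose. In K655/657Q it measured 33108 and 24542 in YPD and 23001 and 21418 in raffinose. The groups do not overlap in either strain, and the spread was wide. The difference in log2 fold change was 0.59 (SE 0.21, limma adjusted p = 0.037) for RPL41A, and it was -0.01 with ACT1 scaling and 0.38, not called, with TPM as deposited. The call was lost in 6 of the 8 fits without 1 library, at 0.37 without the second YPD library of K655/657Q, and was kept without the first YPD library of K655/657Q (0.80) or the second raffinose library of WT (0.74).

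The second comparison followed the genes for 15 min after glucose was added to the raffinose culture. Large-subunit transcripts were higher at 15 min in every strain: 64, 71 and 45 members were called up, where 21.6%, 22.4% and 19.0% of all genes were. The members' median log2 fold change was 0.84, 1.00 and 0.63, and the small-subunit genes lay at 0.87, 0.92 and 0.58. All 81 members were higher in WT and K655/657R, and 79 for K655/657Q, where RPL41A (-0.19) and RPL4A (-0.13) were lower. The same 44 members were called up in all 3 strains.

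RPL14B, minor copy for eL14, had the highest log2 fold change in each strain. It stood at 325 and 340 scaled TPM in WT in raffinose and at 1145 and 1036 at 15 min. K655/657R rose from 333 and 356 to 1191 and 1244, and K655/657Q from 350 and 357 to 966 and 937. No 0 min library reached any 15 min library, and the log2 fold change was 1.71, 1.82 and 1.43 (SE 0.06 in each).

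RPL22B was at 1.33, 1.44 and 1.19, the next highest in WT and K655/657Q. RPL18B (1.28) was also among the highest in WT, RPL35B (1.51, above RPL22B) in K655/657R and RPL42B (1.04) in K655/657Q. The least moved in WT were RPL41B (0.04), RPL41A (0.05) and RPL39 (0.07), with SEs of 0.18, 0.15 and 0.28, and in K655/657Q RPL3 was also low (0.07).

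By role, 6 of 7 stalk genes were called up in WT at 15 min, 6 in K655/657R and 1, RPL12A (0.76), in K655/657Q. Of the 6 genes at the catalytic centre, 3, 3 and none were called, and 5 of these in K655/657Q had a limma p under 0.05 before adjustment. All 14 carriers were called up in each strain, where 21.6%, 22.4% and 19.0% of all genes were. STB3, a repressor that binds promoters of ribosome biogenesis genes, was called down at -1.15 in WT. It was named after its value was seen, and the listed regulators were not counted at this time.

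Few A/B ratios passed the fold threshold at 15 min. RPL14 was called in all 3 strains (-0.64, -0.80 and -0.72), with RPL43 (0.67) in K655/657R and RPL1 (-0.69) in K655/657Q. The called ratios were 1, 2 and 2 of 35, beside 9.84%, 11.5% and 9.84% of the 61 pairs. Without the fold threshold 22, 23 and 27 of the 35 had an adjusted p below 0.05. RPL14 in WT fell to -0.58 and lost its call without the first raffinose library, and RPL43 in K655/657R fell to 0.48 without the first raffinose library of that strain.

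RPL1A and RPL1B share 99.4% of their coding bases and only 12.3% of words are distinct, so the split behind the RPL1 ratio is uncertain. RPL7B rose with RPL7A at this time, from 92.4 and 95.4 scaled TPM to 190 and 159 in WT, by log2 0.88 against 1.02. All RPL8A libraries at 15 min were also above those in raffinose, at 429 and 401 scaled TPM in WT, with log2 fold changes of 0.53, 0.54 and 0.30 and no call.

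**Figure D4:**
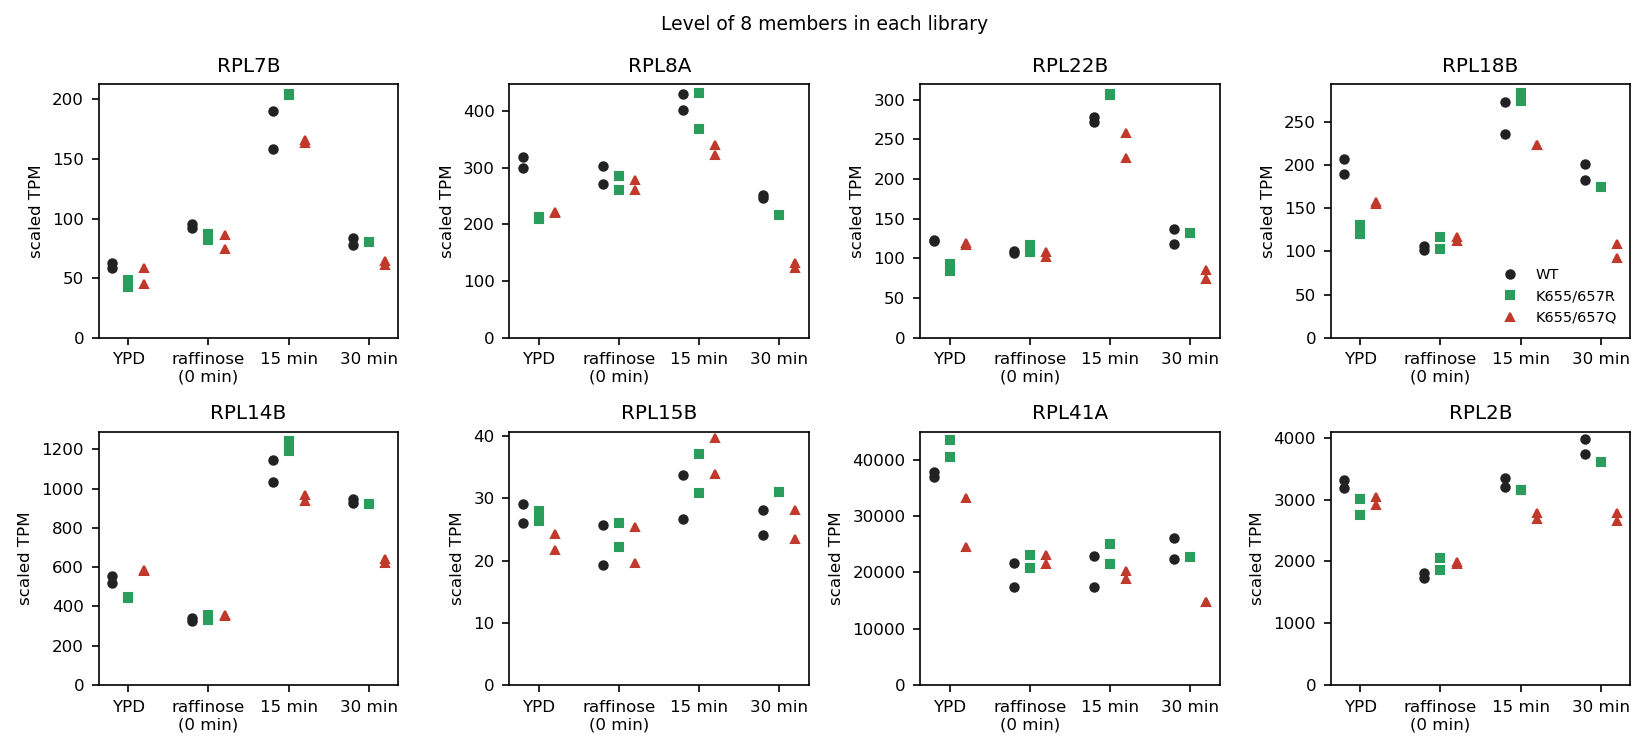
Level (scaled TPM) of 8 members in each library by condition and strain, with 1 point per library. RPL7B, RPL8A, RPL22B and RPL18B peak at 15 min, RPL15B stays between 19.3 and 39.7, RPL41A is highest in YPD, and RPL2B in WT is highest at 30 min.

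The third comparison took the genes to 30 min after glucose. In WT 71 members were called up against 0 min, with a median log2 fold change of 1.09, where 20.1% of all genes were called up. In K655/657Q 37 were called up (17.0% of all genes) with a median of 0.56, and 2 were called down, RPL8A and RPL41A (21.3% of all genes). The single K655/657R library gave a median of 1.03 over the members, with 79 of 81 above their raffinose mean, and no test. The small-subunit genes lay at 1.19 in WT and 0.53 in K655/657Q.

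The highest log2 fold changes in WT were those of RPL21B (1.69), RPL9A (1.66) and RPL7A (1.59), and in K655/657Q those of RPL37B (1.00), RPL7A (0.99) and RPL21B (0.95). RPL2B went from 1807 and 1731 scaled TPM to 3741 and 3984 in WT (log2 1.13, called) and from 1988 and 1965 to 2652 and 2782 in K655/657Q (0.46, not called). All 7 stalk genes were called up in WT and 1, RPP2B (0.59), in K655/657Q. All 11 single-copy genes were called up in WT and 4 in K655/657Q.

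The minor copies that had peaked at 15 min fell back. RPL7B measured 78.0 and 84.0 scaled TPM in WT at 30 min and 60.7 and 64.7 in K655/657Q. RPL8A (chrVIII:35255-36025, minus strand), minor copy for eL8, measured 247 and 252 in WT, 217 in the K655/657R library and 123 and 132 in K655/657Q. RPL22B (chrVI:64243-64932, minus strand, 1 intron) measured 119 and 138, 132, and 73.8 and 84.9 in the same order.

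Against 15 min, a contrast added after values had been seen, the log2 fold change in WT was -1.10 for RPL22B, -1.09 for RPL7B and -0.73 for RPL8A, the 3 members called down (5.75% of all genes). RPL39 (0.79), RPL33A (0.72) and RPL22A (0.59) were called up (2.91%). In K655/657Q 8 members were called down (6.40% of all genes): RPL22B (-1.60), RPL7B (-1.38), RPL8A (-1.38), RPL18B (-1.15), RPL9B (-0.83), RPL27B (-0.77), RPL12A (-0.65) and RPL14B (-0.59). All of the members called down in either strain are 1 copy of a pair, as are 70 of the 81. The median of the 81 was 0.28 in WT and -0.05 in K655/657Q, and the latter turned to 0.05 with TPM as deposited, 0.10 with upper-quartile scaling and 0.09 with ACT1.

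Against raffinose, RPL8A in K655/657Q was at -1.08 (SE 0.08, limma adjusted p = 1.1e-08), and every 30 min library lay below both raffinose libraries (260 and 278 scaled TPM). In WT the values of RPL8A (-0.20), RPL7B (-0.21) and RPL43B (0.10) were the lowest of the set, and none was called. With ACT1 scaling RPL8A turned to 0.05 and RPL7B to 0.03 in WT. RPL41A in K655/657Q was at -0.59 (SE 0.15, adjusted p = 0.0021), and it lost the call at -0.39 with upper-quartile scaling, at -0.18 with ACT1 and at -0.53 without the first raffinose library of that strain.

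Of the 7 WT ratios called in raffinose, 5 were called in the other direction at 30 min. RPL11 (0.25) and RPL41 (0.11) were not called. Both comparisons use the same WT raffinose libraries, with opposite sign, so they are not independent. In WT 6 of 35 ratios were called and in K655/657Q 7, with 19.7% of the 61 pairs called in each. RPL7 rose by 1.80 (SE 0.07), RPL22 by 1.33 (SE 0.14), RPL9 by 1.04 (SE 0.08), RPL43 by 1.04 (SE 0.11) and RPL27 by 0.63 (SE 0.07) in WT, and RPL8 fell by 1.68 (SE 0.07). Their limma adjusted p ranged from 5.3e-12 (RPL7) to 6.1e-07 (RPL27 and RPL43). RPL27 dropped to 0.58 and lost the call without the first raffinose library or the second 30 min library of WT.

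In each of these 6 pairs the copy with the higher mean level gained share, opposite to raffinose. In K655/657Q the ratios were RPL8 (-1.99), RPL43 (1.40), RPL7 (1.34), RPL22 (1.34), RPL27 (0.87), RPL18 (0.75) and RPL9 (0.66). Between 15 and 30 min, 8 ratios were called in WT (19.7% of the 61) and 10 in K655/657Q (24.6%), led by RPL22 (1.69 and 1.79), RPL7 (1.65 and 1.67) and RPL8 (-1.20 and -1.72).

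The sums over pairs again varied less than the genes. At 15 min 46, 46 and 45 of 46 protein sums were higher than in raffinose. At 30 min 46 were in WT and 44 in K655/657Q. The SD over proteins was 0.26 at 30 min in WT, against 0.40 over genes and 0.28 over higher copies and single-copy genes, and the range was from 0.26 (RPL41) to 1.49 (RPL14). The RPL7 sum had the highest 30 min change of all proteins in K655/657Q, at 0.91.

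The comparison of strains asked whether the substitutions in Sfp1 alter the set. Few members were called in YPD and raffinose. For K655/657Q against WT in YPD no member was called by limma (20 had p under 0.05 before adjustment), where 13.7% of all genes were called. The median was -0.05, and it turned to 0.13 with TPM as deposited and to 0.39 with ACT1 scaling, where 80 of the 81 were higher. In raffinose none was called (22 before adjustment), where 3.57% of all genes were, and the median was 0.09 (-0.05 with ACT1 scaling). For K655/657R against WT in raffinose none was called (3 before adjustment; 0.173% of all genes), and in YPD 1 was (1.62% of all genes), RPL18B. The YPD difference of K655/657R went with coding length (Spearman correlation -0.61 over the 81 genes) and about as much with mean level (0.60). The part of length or level in it was not tested.

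RPL18B, the minor copy for eL18 (chrXIV:63570-64562, minus strand), measured 207 and 190 scaled TPM in WT in YPD, 121 and 131 in K655/657R, and 155 and 158 for K655/657Q. Both mutants lay below WT without overlap, at log2 -0.65 (SE 0.09, limma adjusted p = 0.00048) in K655/657R and -0.34 (not called) in K655/657Q. RPL8A showed a like order, with 320 and 300 in WT, 213 and 210 in K655/657R, and 221 and 221 for K655/657Q, and log2 differences of -0.55 and -0.48 that were not called.

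In YPD the other extremes for K655/657Q were RPL30 (-0.41), RPL41A (-0.39), RPL35B (0.34), RPL11B (0.22) and RPL19A (0.21). Of the A/B ratios, none of the 35 was called by limma between K655/657Q and WT in YPD or in raffinose, beside 3.28% of the 61 pairs in each, and 15 and 14 had p under 0.05 before adjustment. The carriers differed: 13 of 14 were called up in K655/657Q against WT in YPD, with a median of 0.95. In raffinose 5 were called down. Of all genes, 13.7% in YPD and 3.57% in raffinose were called in either direction.

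At 30 min all 81 members were lower in K655/657Q than in WT, with a median of -0.45, as were all 56 small-subunit genes (-0.45). The 9 that were called (2.78% of all genes were called down) were RPL8A (-0.97), RPL18B (-0.93), RPL4A (-0.75), RPL5 (-0.74), RPL41A (-0.71), RPL12A (-0.70), RPL22B (-0.68), RPL26A (-0.64) and RPL31B (-0.62). The count was 18 without the second 30 min K655/657Q library or without the first 30 min WT library, and 2 with TPM as deposited. RPL18B measured 182 and 202 scaled TPM in WT, 174 in the K655/657R library and 92.9 and 108 in K655/657Q. For RPL8A and for RPL18B both K655/657Q libraries lay below every other library at 30 min.

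RPL15B (-0.02), RPL43A (-0.26) and RPL41B (-0.29) differed least at this time. Of the A/B ratios, RPL8 (-0.64, SE 0.07, limma adjusted p = 5.2e-06) was called at 30 min, beside 3.28% of the 61. RPL8A fell below RPL8B further in K655/657Q, where it gave 9.44% and 9.77% of the pair, than in WT, where it gave 13.6% and 15.0%.

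The difference in the 30 min response was tested as an interaction of strain and time. It was lower in K655/657Q for all 81 members, with a median of -0.56, and 37 were called, where 2.92% of all genes were called down. Of the small-subunit genes 36 of 56 were called, with a median of -0.63. The 3 lowest were RPL18B (-1.06, SE 0.13, limma adjusted p = 0.00011), RPL41A (-0.90, SE 0.21, adjusted p = 0.012) and RPL8A (-0.88, SE 0.11, adjusted p = 0.00018). RPL41A lost its call without the first raffinose (-0.75) or the first 30 min library (-0.80) of WT and with ACT1 scaling (-0.73). With the library left out by the study put back, neither RPL41A nor RPL8A was called (adjusted p = 0.25 and 0.065). RPL15B (-0.02), RPL39 (-0.11) and RPL7B (-0.14) had the smallest differences.

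The number of calls depended on the fit. It was 4 with TPM as deposited, 21 with upper-quartile scaling, 4 with ACT1 scaling and 2 when the library left out by the study was put back, while 81, 75, 80, 78 and 81 members were lower with the main scaling, TPM as deposited, upper-quartile, ACT1 and all 24 libraries. The members' median stood 0.56, 0.54 and 0.55 under that of all genes with the main scaling, TPM as deposited and ACT1. A scaling shifts all genes of a library alike, so this difference hardly depends on it and is no check of it.

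Copies and single-copy genes had like medians. The median difference was -0.57 for 70 A or B copies and -0.56 for 11 single-copy genes, with 33 and 4 called. The higher copies lay at -0.57 and the lower copies at -0.55. The 53 genes with an intron lay at -0.59 (27 called) and the 28 without at -0.56 (10 called). Members with ACCCNNNCA in the window of 300 bases lay at -0.57 and the 6 with AAAATTTT at -0.61, against -0.56 for all 81, a comparison given as description.

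By role, 2 of 7 stalk genes were called (RPL12A at -0.75 and RPL12B at -0.68), 3 of 6 at the catalytic centre (RPL2A, RPL2B and RPL3 at -0.62, -0.67 and -0.66), 1 of the 3 partners of 5S RNA (RPL5 at -0.66) and 4 of 13 at the exit tunnel rim. RPL28 (-0.79) had the largest fall among protein sums. Neither the 18 regulators nor the 14 carriers had a call by limma in this difference, with 1 gene of each list at p under 0.05 before adjustment, and medians of 0.04 and 0.16.

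**Figure D5:**
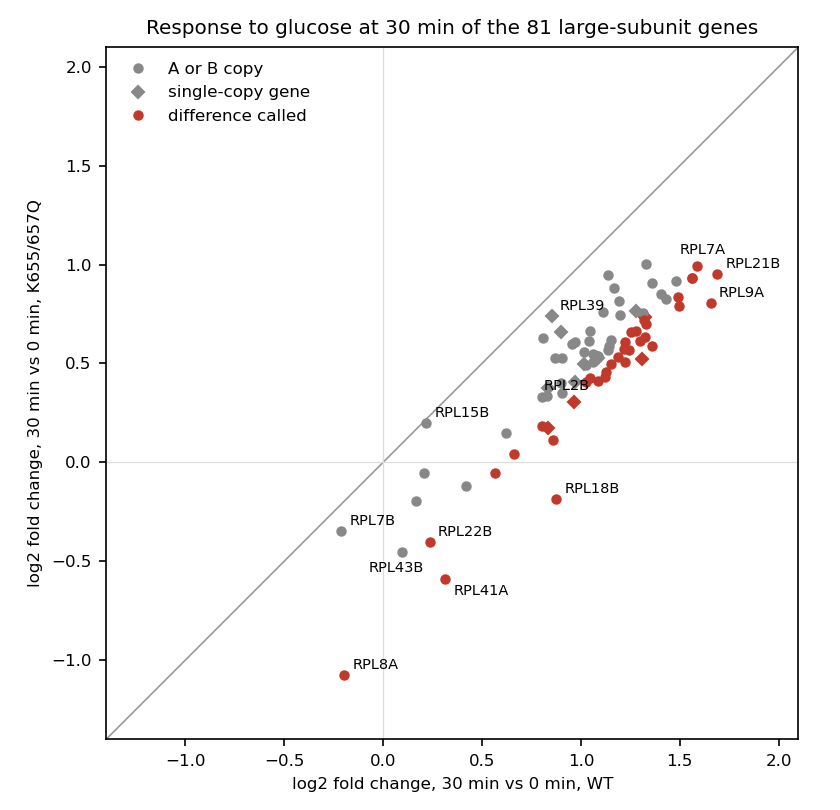
Log2 fold change at 30 min against 0 min in WT (x) and in K655/657Q (y) for the 81 genes, with the diagonal of equal response, single-copy genes as diamonds and genes whose difference was called in red. All points lie below the diagonal, RPL15B almost on it, and RPL8A, RPL41A and RPL18B lie farthest from it.

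Of the A/B ratios, 2 differed in their 30 min response between the strains, beside 6.56% of the 61 pairs. RPL41 was at -0.65 (SE 0.19, limma adjusted p = 0.032) and RPL15 at -0.60 (SE 0.20, adjusted p = 0.040). Each lost its call in 5 of the 8 fits without 1 library. RPL15 was at -0.40 without the second raffinose library of WT, and RPL41 at -0.49 without the first 30 min library of WT. RPL15A went from 1306 and 1291 scaled TPM to 1971 and 2144 in WT and from 1390 and 1423 to 1424 and 1470 in K655/657Q, while RPL15B stayed within its narrow range. RPL7, RPL8, RPL9, RPL22 and RPL43, whose ratios moved most with the carbon source, were not called in this difference.

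At 15 min the response differed less between the strains. The difference was lower in K655/657Q for 72 of 81 members with a median of -0.22, and none was called by limma (37 had p under 0.05 before adjustment), where 2.91% of all genes were called. This contrast was added after values had been seen. It went with coding length, with a Spearman correlation of -0.63 over the 81 genes, a description without p. The WT 15 min libraries also lay farthest apart of all replicate pairs over the members, with a root mean square difference of 0.26 on the log2 scale against 0.08 to 0.16 in the other groups, and RPL39 measured 6366 and 3171 scaled TPM in them. The part of length or of these libraries in the difference was not tested. RPL9A (-0.51), RPL3 (-0.50) and RPL8B (-0.44) were the lowest, and RPL39 (0.48) the highest.

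Across the 23 libraries most members moved together. The correlation of a member's log2 level with the mean of the other members had a median of 0.94, with 56 members at 0.9 or above. It was below 0.5 for 7: RPL8A (0.13), RPL41A (0.20), RPL7B (0.20), RPL41B (0.26), RPL43B (0.34), RPL22B (0.47) and RPL9B (0.47). The libraries share groups and scaling, and these values are a description without p. All 7 are copies of a pair, as are 70 of the 81 members, and no single-copy gene was among them. The split between RPL41A and RPL41B is uncertain.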

How the data were processed

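RNA-seq of 24 yeast libraries (3 strains, 4 conditions, 2 replicates) was analysed. Deposited values are TPM per transcript. The authors trimmed reads with fastp 0.23.2 and quantified them with kallisto 0.48.0 on R64-1-1 transcripts of Ensembl. Kallisto shares reads that fit both copies of a pair, so the split within similar pairs is an estimate. The study's test on counts was not used, since the table holds TPM, and depth is unknown.

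TPM were divided by median-of-ratios size factors (0.805 to 1.15) and transformed as log2(value + 1), so fold changes of low genes are understated. The 6363 genes that reached a mean TPM of 1 were fitted with limma 3.58.1 in R 4.3.3 (lmFit, eBayes, trended variance). Each group had its own mean, leaving 11 residual degrees of freedom, and p-values were adjusted over all genes (Benjamini-Hochberg). A call needed 1.5-fold or more and an adjusted p below 0.05. Log2 A/B ratios of 61 pairs (35 large-subunit, 24 small-subunit, 2 other) were fitted likewise without trend and adjusted over the 61. Both fits were tested on simulated data. The second 30 min K655/657R library was left out, as in the study. Coordinates, introns and sequences came from the R64 assembly of RefSeq, where all 81 genes were matched. Biopython 1.88, matplotlib 3.10.9, numpy 2.4.6 and pandas 2.3.3 ran under Python 3.11.15.

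The members and the lists of regulators, carriers and roles were chosen with earlier results of these data known, and so support nothing independently. Named are RPL2B, the stalk and single-copy genes where a group is described, the 3 highest and 3 lowest members of each comparison, members called against the majority, the 5 widest and 3 most even pairs, up to 3 called pairs per direction in each ratio comparison, and members with extreme levels. Other genes named, and the comparisons of 30 with 15 min and of the strains' responses at 15 min and in raffinose, were chosen after their values were seen. Alternatives changed the pseudocount, filter, scaling, fold threshold, samples, replicate block and resolution of copies, or left out each library in turn. Exact permutation of 2 libraries against 2 cannot reach below p = 0.333 and was not used.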

Additional observations from a re-analysis of the deposited data

Results flagged for a closer look

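The 30 min response of 37 large-subunit genes was called weaker in K655/657Q than in WT, in a direct test of the difference (limma interaction). Its size (median -0.56 over the 81 genes) and the scaling it depends on are given above.

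The RPL15 A/B ratio differed in its 30 min response between K655/657Q and WT by -0.60 on the log2 scale (limma adjusted p = 0.040). RPL15B, at 19.3 to 39.7 scaled TPM, carries most of the error of this ratio. The RPL41 A/B ratio differed by -0.65 (adjusted p = 0.032), and 18.75% of the 31-base words tell its copies apart.

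RPL41A differed between K655/657Q and WT in its raffinose response by 0.59 (adjusted p = 0.037), and its YPD libraries of K655/657Q (33108 and 24542 scaled TPM) were far apart.

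The library left out by the study, the second 30 min K655/657R replicate, held 23.3% of its TPM in the 81 genes, against 23.4% in the first replicate. Its size factor was 0.564, against 0.995 in that replicate. After scaling, the members stood a median of 0.68 above the first replicate on the log2 scale, from -0.29 (RPL7B) to 1.27 (RPL12B), while the A/B ratios differed by a median of 0.06, from -0.46 (RPL27) to 0.72 (RPL7).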

How the results depend on the processing

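Of 351 recomputed counts of calls, 312 stayed within 1.5 times the reported count, 27 were larger and 12 smaller, and of 859 recomputed values of 67 called genes and ratios 811 kept direction and call, 47 lost the call and 1 reversed, the raffinose response of RPL41A (-0.0057 with ACT1). Values that were not called were followed under the scalings only, and those that turned are given above. With TPM as deposited the members called were 21, 2 and 25 (raffinose in WT, K655/657R and K655/657Q), 2 (K655/657R against WT in YPD), 4 (30 min response) and 2 (K655/657Q against WT at 30 min). With upper-quartile scaling they were 60 (30 min in K655/657Q) and 21 (30 min response). With ACT1 they were 2, 0 and 35 in raffinose, 72 and 68 at 15 and 30 min in K655/657Q, 6 for K655/657Q against WT in YPD and 4 for the 30 min response, which fell to 2 with all 24 libraries. Without the fold threshold they were 75 and 66 at 15 and 30 min in K655/657Q, 17 and 13 for K655/657Q against WT in YPD and raffinose, 31 for K655/657R in YPD, 62 for the 30 min response and 72 for K655/657Q at 30 min, and the ratios called were 22, 24 and 26 in raffinose, 22, 23 and 27 at 15 min, 22 and 24 at 30 min (WT and K655/657Q) and 12 and 14 for K655/657Q against WT in YPD and raffinose. With at least 20% distinct words in each copy, 1 ratio was called at 15 min in K655/657Q.

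Leaving out 1 library in turn gave 57 to 64, 48 to 52 and 51 to 55 members in raffinose, 57 to 71, 67 to 73 and 41 to 52 at 15 min, 70 to 72 and 30 to 44 at 30 min, 29 to 46 for the 30 min response, 7 to 18 for K655/657Q against WT at 30 min, 0 to 1 in YPD (1 without its first library) and 1 to 2 for K655/657R in YPD (2 without the second WT library). Ratios gave 6 to 7, 7 to 9 and 5 to 6 in raffinose, 1 to 2 (2 without the first 15 min library) and 2 to 3 at 15 min in WT and K655/657Q, and 5 to 6 and 7 to 8 at 30 min. A lone library is assumed to vary like the others.

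Same-numbered libraries deviated together in some comparisons and against each other in others (correlation from -0.36 to 0.33 over 15 comparisons). Whether the numbers pair the samples is not settled by this, and the main fit does not pair them. With the replicate block, and with crossed numbers in 5 comparisons where the correlation was under -0.1 (an alternative chosen after seeing the data, as were the medians under each scaling), no count moved by over 1.5 times.

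Only 2 libraries per group, TPM without depth, and similar copies (RPL1, RPL4, RPL35 and RPL41) limit what can be told apart.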
